A study of Trichoderma reesei RUT C-30 with 16 samples.

Results

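The genes described here encode enzymes that break down xylan, a main hemicellulose of plant cell walls, and arabinan, which forms side chains of pectin, in the filamentous fungus *Trichoderma reesei*. The members were 4 of the 10008 genes of the count tables, taken by identifier. They were the xylanase genes *xyn1* (TrF0479W, TRIREDRAFT_74223) and *xyn3* (TrC0667W, TRIREDRAFT_120229), the β-xylosidase gene *bxl1* (TrC1552C, TRIREDRAFT_121127) and the α-L-arabinofuranosidase gene *abf2* (TrC0659C, TRIREDRAFT_55319). The rule names the genes by identifier and uses no measured value. The study, however, named all 4 among genes it had called on these samples. It placed *xyn1*, *xyn3* and *bxl1* in a cluster reduced by DTT and raised in lactose, and *abf2* among unassigned genes. The directions of the members are thus not independent of these data. The symbols are those of the study. Other naming schemes may give the symbol *abf2* to another arabinofuranosidase gene, so the values under it belong to TrC0659C. All 4 genes passed the filter on low counts, which kept 9101 genes.

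RNA was sequenced from 16 cultures, 2 for each of 2 strains in each of 4 conditions. Rut-C30 is a cellulase hyperproducing mutant descended from the wild type QM6a, with a truncated gene for the carbon catabolite repressor CRE1, and it was the parent of Δ*res2*, in which the transcription factor gene *res2* was replaced by a deletion cassette. Both strains thus carried the Rut-C30 mutations, and the Δ*res2* cultures came from 1 representative transformant. Each culture went through a glucose batch phase of 48 h and was then fed with glucose (GC) or with lactose (LC). Other cultures received 10 mM dithiothreitol (DTT), a reducing agent that disturbs protein folding in the endoplasmic reticulum, for the last 2 h of feeding on glucose (GD) or on lactose (LD). The series description gives 48 h of feeding, and the methods of the study give a shorter time. The comparisons address how carbon source, folding stress and the loss of *res2* change the transcripts of secreted enzymes.

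Xylan is a chain of xylose units that carries arabinose side groups. Endoxylanases such as the products of *xyn1* and *xyn3* cut the chain inside, β-xylosidase releases xylose from the short pieces, and arabinofuranosidases remove the arabinose side groups and act on arabinan. These enzymes are secreted through the endoplasmic reticulum. In *T. reesei*, many genes for cellulases and xylanases are switched on by the activator XYR1 and damped by repressors such as ACE1, and lactose is a common inducing carbon source.

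The libraries held from 20351784 to 35679977 counts. Across genes, which are no independent replicates, Pearson's r of log2 counts was 0.882 to 0.956 between the duplicates of the glucose groups and 0.993 to 0.996 between those of the lactose groups. The biological coefficient of variation, the typical relative spread between duplicates beyond counting error, was 0.494 when only the glucose libraries were fitted, 0.0711 with only the lactose libraries and 0.355 with all 16. The fit of all libraries shares 1 estimate of the spread, so the standard errors of changes in lactose are not smaller in it. The library numbers of the Rut-C30 glucose cultures (GC and GD) belong to another series of numbers than those of all other cultures. What the numbers mark is not given in the sources used here, and it cannot be told apart from these groups in any comparison that uses them. No source used here pairs *res2* with an identifier of the count tables. TrA1112W, chosen after its values were seen, was the only gene called between the strains in all 4 conditions, with 2900 to 7046 counts in the Rut-C30 libraries and 0 to 2 in the Δ*res2* libraries. A count gives the share of a transcript in the library, so that fewer cells with it and less RNA per cell cannot be told apart.

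In the deposited annotation of the QM6a chromosomes, *xyn1* lay on chromosome VI from 1598027 to 1598778 on the forward strand, with 3 exons and 657 coding bases. The other members lay on chromosome III. *xyn3* ran from 2321852 to 2323203 on the forward strand with 4 exons and 1044 coding bases, *bxl1* from 5208063 to 5210456 on the reverse strand with 1 exon and 2394 coding bases, and *abf2* from 2291911 to 2293443 on the reverse strand with 1 exon and 1533 coding bases. *abf2* and *xyn3* were 28408 bases apart, with 7 genes between them. *bxl1* was next to the β-glucosidase gene *bgl1* (TrC1551C), 1311 bases away on the same strand.

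*xyn1* was high in lactose without DTT and low in the other conditions. Its normalized counts (counts scaled to a common library size) were 61803 and 97612 in Rut-C30 LC and 88649 and 81916 in Δ*res2* LC. With DTT in lactose, they were 351 and 196 in Rut-C30 and 280 and 366 in Δ*res2*. In GC, the values were 178 and 1457 in Rut-C30 and 339 and 127 in Δ*res2*, and in GD they were 49.9 and 30.6 in Rut-C30 and 12.2 and 36.6 in Δ*res2*. The LC libraries were above all others, and the GD libraries were below all others. Of all fitted genes, 39.4% had all 4 LC above all 4 LD libraries, 14.4% had LC above GC, 20.6% had GC above GD and 11.5% had LD above GD in this way. Averaged over the strains, *xyn1* rose by 7.56 ± 0.76 (SE) on the log2 scale from GC to LC, a 189-fold increase, and fell by 8.11 ± 0.78 from LC to LD, a 277-fold decrease. It also fell by 3.81 ± 0.66 from GC to GD, and its adjusted p in these comparisons lay between 1.04e-05 and 0.000659 (edgeR quasi-likelihood F test, Benjamini-Hochberg). In LD/GD the value was 3.26 ± 0.65, and its adjusted p of 0.00901 missed the limit of 0.005.

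*xyn3*, the other endoxylanase gene, was lower and close to absent in glucose with DTT. In LC it had 6660 and 7325 normalized counts in Rut-C30 and 6040 and 8525 in Δ*res2*, and in LD 28.8 and 15.0 for Rut-C30, 12.96 and 9.13 for Δ*res2*. In GC, Rut-C30 had 0 and 86.7 normalized counts and Δ*res2* 159 and 116. The GD libraries held 5 and 0 counts in Rut-C30 and 0 and 3 in Δ*res2*, so that in GD the transcript was at the limit of what this depth can show. LC stood above all other libraries, and every LD library was above every GD library. As the average of the strains, *xyn3* rose by 6.52 ± 0.93 on the log2 scale from GC to LC (adjusted p = 0.00134, edgeR quasi-likelihood F test, Benjamini-Hochberg) and fell by 8.83 ± 1.05 from LC to LD, a 456-fold decrease (adjusted p = 4.27e-05). The GD/GC value was -5.03 ± 1.14, but with a mean of 46.5 normalized counts it missed the limit of 100 counts, and it depends on the small count added in the fit (-4.22 with an added count of 2).

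*bxl1*, whose product acts after the endoxylanases, reached the level of *xyn1* in lactose by count and kept a high level in 3 of the 4 glucose cultures without DTT. Its normalized counts were 63978 and 85727 in Rut-C30 LC and 88261 and 85427 in Δ*res2* LC. In GC they were 297 and 23604 in Rut-C30 and 9852 and 10317 in Δ*res2*. With DTT the gene was low on both carbon sources, at 431 and 283 (Rut-C30 LD), 110 and 109 (Rut-C30 GD), 279 and 355 (Δ*res2* LD) and 138 and 241 (Δ*res2* GD). The GC duplicates of Δ*res2* were nearly equal, while those of Rut-C30 differed 79.6-fold. In the average of the strains, *bxl1* fell by 7.91 ± 1.07 on the log2 scale from LC to LD, a 240-fold decrease, and by 6.25 ± 0.999 from GC to GD, a 76.2-fold decrease (adjusted p = 0.000106 and 0.000405, edgeR quasi-likelihood F test, Benjamini-Hochberg). All 4 LC libraries were above all 4 GC libraries, as in 14.4% of fitted genes. The LC/GC value of 2.88 ± 0.85 missed the limits (adjusted p = 0.0419 by the same test). Without Rut-C30 GC replicate 2, it was 5.61 with an adjusted p of 1.48e-05 by the same test, and without Rut-C30 GC replicate 1 it was 2.44 with an adjusted p of 0.000972, so that the gene was called without either of these libraries.

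*abf2* differed from the other members in its order across conditions, with its highest level in glucose. Its normalized counts in GC were 2914 and 1639 in Rut-C30 and 695 and 834 in Δ*res2*, against 264 and 293 in Rut-C30 LC and 270 and 214 in Δ*res2* LC. In GD they were 246 and 1315 in Rut-C30 and 252 and 383 in Δ*res2*, and in LD 83.1 and 72.1 in Rut-C30 and 46.4 and 62.9 in Δ*res2*. The 4 GC libraries were all above the 4 LC libraries (as in 16.3% of fitted genes), and the 4 GD libraries were all above the 4 LD libraries (as in 11.5%). Taken over both strains, *abf2* fell by 2.35 ± 0.43 on the log2 scale from GC to LC, a 5.08-fold decrease, and by 2.93 ± 0.44 from GD to LD, a 7.62-fold decrease (adjusted p = 0.00447 and 0.00280, edgeR quasi-likelihood F test, Benjamini-Hochberg). The LC/GC call sat close to the limit of 0.005 and was lost when any 1 of its 8 libraries was left out (adjusted p from 0.00514 to 0.0309 by the same test). The LD/GD call was lost without any 1 of the 4 LD libraries (adjusted p from 0.0192 to 0.0242) and kept without any 1 of the 4 GD libraries.

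For *abf2*, the averaged value with DTT was -1.99 ± 0.43 in LD/LC and -1.41 ± 0.41 in GD/GC, with adjusted p of 0.00234 and 0.0139 by the edgeR quasi-likelihood F test, Benjamini-Hochberg. Neither met the limits, the first because it was just inside a log2 fold change of 2. All 4 LC libraries of *abf2* were above all 4 LD libraries, as in 39.4% of fitted genes. In GD/GC the libraries overlapped, since Rut-C30 GD replicate 2 (1315) lay above both GC libraries of Δ*res2*.

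**Figure D1:**
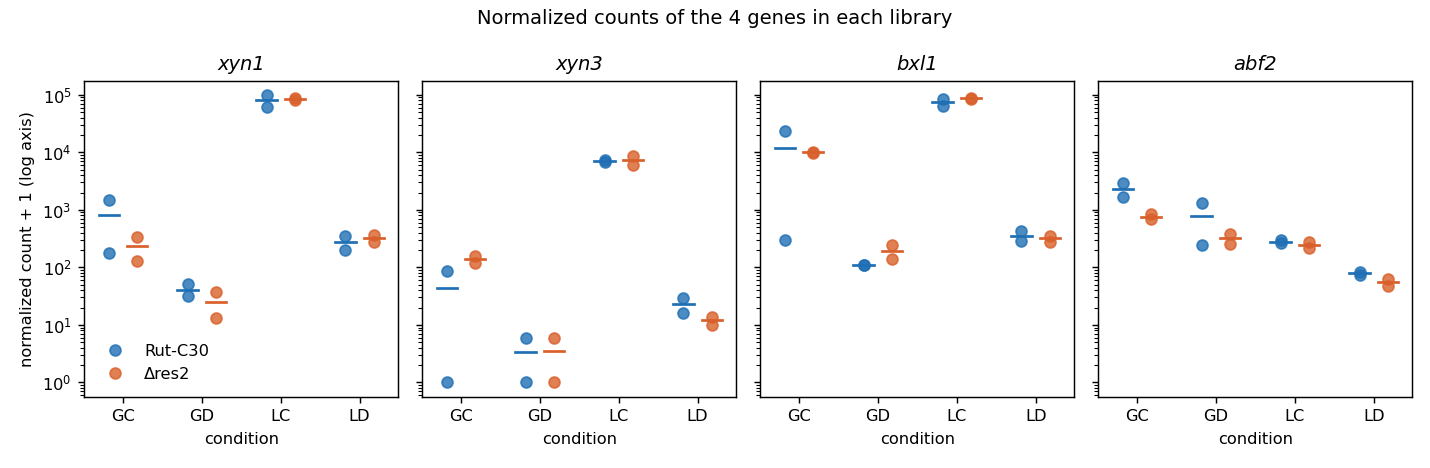
Normalized count + 1 (log axis) of each gene in each library, with condition on the horizontal axis, a point for each library and a bar for the mean of 2 libraries. The LC libraries of *xyn1*, *xyn3* and *bxl1* were above all others, while *abf2* was highest in GC, and the 2 GC points of Rut-C30 were far apart for *bxl1* (297 and 23604).

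Levels of different genes were compared per kilobase of coding length. In LC, the mean normalized count per kilobase was 121320 ± 38540 (SD, n = 2) for *xyn1* in Rut-C30, 31267 ± 6424 for *bxl1*, 6698 ± 451 for *xyn3* and 182 ± 13.3 for *abf2*. In Δ*res2* the order was the same in LC, from 129806 ± 7247 for *xyn1* to 36276 ± 837, 6976 ± 1683 and 158 ± 25.9. In lactose without DTT, a kilobase of *xyn1* thus carried the most counts and one of *abf2* the fewest, and the libraries of the 4 genes did not overlap. By mean, the order was another one in glucose. In GC of Δ*res2*, *bxl1* led with 4212 ± 137, before *abf2* with 499 ± 64.3, *xyn1* with 355 ± 228 and *xyn3* with 132 ± 29.3. In GC of Rut-C30 the means had the same order, at 4992 ± 6884, 1485 ± 588, 1244 ± 1376 and 41.5 ± 58.8. The GC libraries of *abf2* and *xyn1* overlapped in both strains. In Rut-C30 GC replicate 1, *bxl1* (124) was below *xyn1* (271) and *abf2* (1901). In GD, *abf2* had the highest mean of the members in both strains, at 509 ± 493 for Rut-C30 and 207 ± 60.4 for Δ*res2*, against 2.34 ± 3.31 and 2.39 ± 3.38 for *xyn3*. No test was run between genes.

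Within each gene, the 8 groups fell into an order by their mean in which several neighbours overlapped. For *xyn1*, LC of both strains came first and overlapped, and GC of Rut-C30, LD of Δ*res2*, LD of Rut-C30 and GC of Δ*res2* followed, each overlapping the next. For *bxl1*, both LC groups were followed by both GC groups, both LD groups and both GD groups. For *xyn3*, both LC groups were followed by both GC groups, LD and GD. For *abf2* the order was GC of Rut-C30, GD of Rut-C30, GC and GD of Δ*res2*, LC of Rut-C30, LC of Δ*res2*, LD of Rut-C30 and LD of Δ*res2*, and the LC groups did not overlap the LD groups.

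With the limits that the study used (a mean of 100 or more normalized counts, a log2 fold change beyond 2 either way and an adjusted p under 0.005), *xyn1*, *xyn3* and *bxl1* fell in LD/LC in both strains, which makes 3 of the 4 members in each. Of all fitted genes, 5.6% fell in this comparison in Rut-C30 and 5.26% in Δ*res2*. Averaged over the strains, the same 3 members fell, against a background of 7.3%. These 3 kept the averaged call without any 1 of the 16 libraries and under each alternative run, whereas within Rut-C30 the count was 1 (*xyn1*) without either LC library and 0 without either LD library, and within Δ*res2* it was 2 (*xyn1* and *xyn3*) and 0.

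In LC/GC, 1 member rose in Δ*res2* (*xyn1*, background 0.341%) and 0 in Rut-C30 (background 0.319%). In Rut-C30 all 4 members had an unadjusted p under 0.05 in edgeR (18.2% of fitted genes), and DESeq2 called 3 (2.2% of fitted genes). Averaged over the strains, *xyn1* and *xyn3* rose (background 1.31%) and *abf2* fell (background 0.418%). These shares hold for the fit of all 16 libraries and were not determined with a library left out. Without any 1 LC library or any 1 GC library of Δ*res2*, *xyn1* alone was called. Without either GC library of Rut-C30, *xyn1*, *xyn3* and *bxl1* were called and *abf2* was not.

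In GD/GC, 0 members were called within either strain (background 6.45% in Rut-C30 and 8.45% in Δ*res2* in either direction). At an unadjusted p under 0.05 in edgeR, 4 members of Rut-C30 and 3 of Δ*res2* were counted (45.5% and 50.7% of fitted genes), and DESeq2 called 2 in each (9.26% and 12.2%). Averaged over the strains, *xyn1* and *bxl1* fell (background 5.38%). *bxl1* kept the call without any 1 of the 8 libraries, and *xyn1* missed it without Rut-C30 GD replicate 2 (adjusted p = 0.00503), where *abf2* was called instead (-2.24). Both calls were lost when the glucose libraries were fitted alone (adjusted p = 0.0143 and 0.0115, edgeR quasi-likelihood F test, Benjamini-Hochberg). In that fit the spread between duplicates was larger, and 4.02% of fitted genes were called in GD/GC averaged over the strains.

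In LD/GD, 0 members were called within either strain (background 0.0879% in Rut-C30 and 0.143% in Δ*res2* in either direction), 2 in each strain had an unadjusted p under 0.05 in edgeR (17.7% and 21.3% of fitted genes), and DESeq2 called 1 and 2 (1.1% and 1.59%). Averaged over the strains, *abf2* fell (background 0.341%). The averaged value of *bxl1* was 1.22 ± 0.82, that of *xyn3* 2.71 ± 1.27 and that of *xyn1* 3.26 ± 0.65, so the xylan genes were measured higher in LD than in GD, with none past the limits. LC/GC and LD/LC share the LC libraries, and each of the other comparisons shares libraries with 2 of the 4 in the same way.

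**Figure D2:**
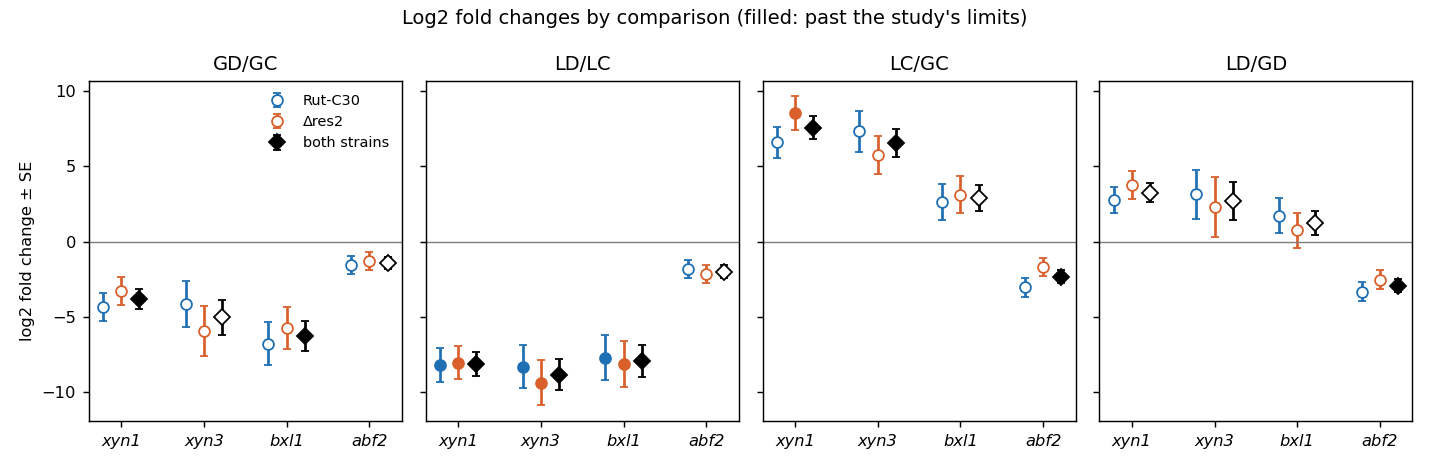
Log2 fold change ± SE of the 4 genes in the 4 comparisons, within each strain (circles, 2 libraries against 2) and averaged over the strains (diamonds, 4 against 4), with filled symbols past the limits of the study. In LC/GC and LD/GD, *abf2* lies below 0 (-2.35 and -2.93 on average) and the other genes lie above it.

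Averaged over the strains, the DTT response of *xyn1* differed between the carbon sources. Its log2 fold change with DTT was -8.11 in lactose and -3.81 in glucose, a difference of -4.30 ± 0.87 with an adjusted p of 0.0147 by the edgeR quasi-likelihood F test, Benjamini-Hochberg. Within Rut-C30 the difference was -3.84 ± 1.20, and within Δ*res2* it was -4.76 ± 1.25, neither of them called (adjusted p = 0.195 and 0.0988 by the same test). It was the 1 member of 4 called for this difference, against 7.41% of all fitted genes. Its adjusted p rose to 0.0559 without Rut-C30 LD replicate 2 and to 0.0529 without Δ*res2* LD replicate 1. For *xyn3* the difference was -3.81 ± 1.98, for *bxl1* -1.65 ± 1.14 and for *abf2* -0.59 ± 0.58 (adjusted p from 0.289 to 0.616 by the same test). Without Rut-C30 GC replicate 2, which leaves 1 library in that group, the difference was -5.44 for *xyn1*, -8.03 for *xyn3* and -4.37 for *bxl1*.

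No difference between the strains was called for these genes with all libraries. Of the 16 differences between the strains within a condition, 0 were called at an adjusted p under 0.05 in edgeR, 2 had an unadjusted p under 0.05, and DESeq2 called 0. The background of edgeR calls was 0.033% of fitted genes in GC, 0.0549% in GD, 0.022% in LC and 0.011% in LD. DESeq2 called 0.505%, 2.23%, 0.11% and 0.143% of them in the same order. An unadjusted p under 0.05 in edgeR was met by 6.29%, 11.3%, 1.44% and 1.52%. The standard errors of these differences ranged from 0.58 to 2.43 on the log2 scale, so that in this fit differences of several fold would have passed unseen. Both values with a low unadjusted p belonged to *abf2*. Its log2 difference (Δ*res2* minus Rut-C30) was -1.57 ± 0.58 in GC and -1.30 ± 0.59 in GD, with adjusted p of 0.722 and 0.436, against -0.20 ± 0.58 in LC and -0.50 ± 0.61 in LD. In GC both Δ*res2* libraries (695 and 834) were below both Rut-C30 libraries (1639 and 2914), as the groups of 28% of all fitted genes did not overlap there. In GD both lay between the Rut-C30 libraries. The *abf2* difference averaged over the conditions was -0.89 ± 0.29 with an adjusted p of 0.378, and -0.48 without Rut-C30 GD replicate 2. By this average 0 members were called, against 0.044% of fitted genes. An unadjusted p under 0.05 in edgeR was met by 1 member (*abf2*) and by 9.56% of fitted genes. DESeq2 called 0 members and 1.16% of fitted genes.

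In LC, the strain difference in the fit of all libraries was 0.10 ± 0.80 for *xyn1*, 0.06 ± 1.02 for *xyn3* and 0.21 ± 1.12 for *bxl1*. With the 8 lactose libraries fitted alone, an alternative added after the data were seen, the differences in LC were 0.09 ± 0.31 for *xyn1*, 0.05 ± 0.17 for *xyn3*, 0.20 ± 0.18 for *bxl1* and -0.21 ± 0.16 for *abf2*, and 0 members were called in LC or LD. In that fit 13.9% of genes were called between the strains in LC and 13.3% in LD, and the standard errors of the members in LD were 0.21 to 0.64. The response to DTT or lactose also gave 0 calls among 16 differences between the strains, with 0 at an unadjusted p under 0.05 in edgeR and 0 by DESeq2. The background of edgeR calls was 0% in GD/GC, LD/LC and LD/GD and 0.011% in LC/GC. The share of fitted genes with an unadjusted p under 0.05 was lowest for LD/LC (0.725%) and highest for GD/GC (5.21%). This share was 2.49% for LC/GC and 3.85% for LD/GD. DESeq2 called 0% of fitted genes for LD/LC, 0.0989% for LD/GD, 0.11% for LC/GC and 0.165% for GD/GC. With so few genes called, the lack of calls does not set the members apart.

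The strain differences in GC, GD/GC and LC/GC changed when Rut-C30 GC replicate 2 was left out. In that library, *bxl1* was 79.6 times and *xyn1* 8.18 times as high as in replicate 1, and *xyn3* had 113 counts against 0. *abf2* went the other way, at 0.563 times its level in replicate 1. Other genes for secreted enzymes were also higher in replicate 2, such as *bgl1* (80.7 times) and the cellobiohydrolase gene *cbh1* (140 times). In GC of Δ*res2*, *bxl1* had 9852 and 10317 normalized counts, *bgl1* 1081 and 445, and *cbh1* 43322 and 33217. All of these were above replicate 1 (297, 11.8 and 926), while replicate 2 had 23604, 948 and 129780. For *xyn1*, the Δ*res2* values of 339 and 127 lay on either side of replicate 1 (178) and below replicate 2 (1457). Without replicate 2, the Rut-C30 reference in GC was 1 library, taken to vary like the other groups. That library held 0 counts of *xyn3*. Against it, *bxl1* was 5.14 higher in Δ*res2* on the log2 scale in GC, and its strain difference was -4.34 in GD/GC and -4.90 in LC/GC. Without replicate 1, 0 such differences were called. The part of this library in the strain comparison in GC cannot be told apart from a strain effect with 2 cultures a group.

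The biological process terms that the study's tables attach to genes list 8 genes under xylan or arabinan breakdown, the 4 members and 4 more, TrA2132C, TrB1918C, TrD0008W and TrE0434C. The study's tables hold only genes it had called differentially expressed on these samples, so that the list is no independent evidence of a direction. Of the 4 further genes, all 4 fell in LD/LC averaged over the strains, by 6.91 to 8.49 on the log2 scale (median -7.72, against a median of -0.06 over all fitted genes). In LC/GC, 3 rose (TrA2132C by 7.00 ± 1.17 and TrD0008W by 6.26 ± 0.58 on the log2 scale, and TrB1918C 32.0-fold with an SE of 0.82 on the log2 scale), and TrE0434C was at 2.67 ± 0.73 without passing the limits. In GD/GC, 3 fell (-5.98 to -5.29), and TrD0008W was at -1.94 ± 0.51. None was called in LD/GD, where their values ran from 0.50 to 4.59. *abf2* was thus the 1 gene of the 8 that fell in LC/GC.

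TrD0008W is annotated to the breakdown of arabinan and xylan and to arabinose metabolism. It so shares the arabinan term with *abf2*, but had another pattern. It rose in LC/GC and fell by 7.71 ± 0.63 in LD/LC, and its GD/GC value of -1.94 was just short of the fold limit (adjusted p = 0.00758). The difference between its DTT responses in lactose and glucose was -5.76 ± 0.73 (adjusted p = 0.00236, edgeR quasi-likelihood F test, Benjamini-Hochberg). Per kilobase of coding length, its LC mean was 8939 (Rut-C30) and 9566 (Δ*res2*), which was above the 182 and 158 of *abf2*.

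**Figure D3:**
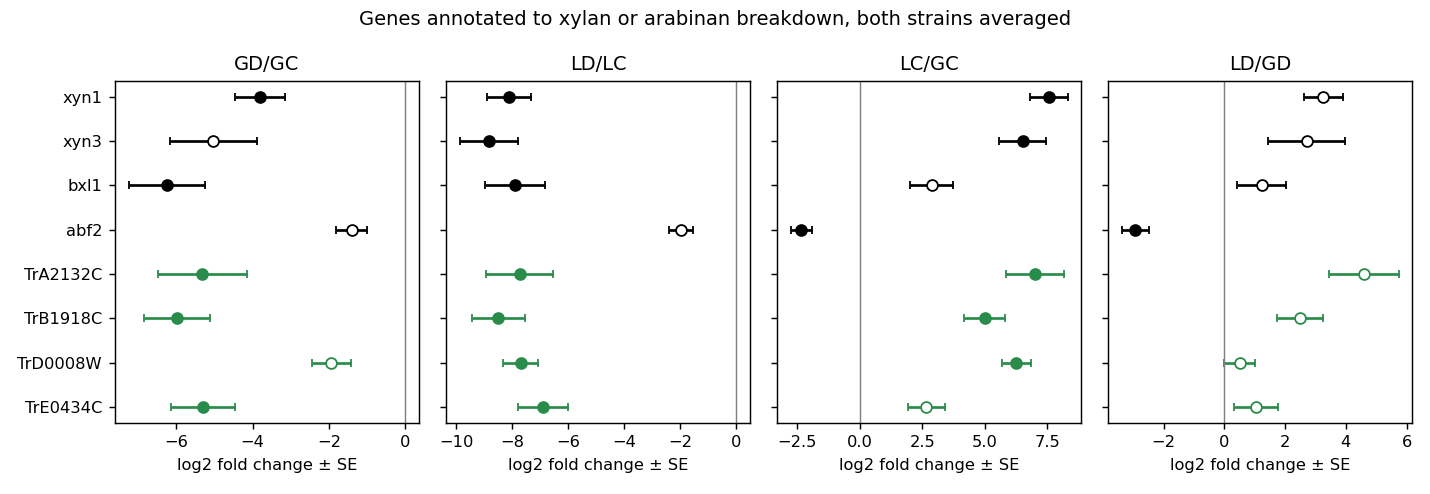
Log2 fold change ± SE, averaged over the strains (4 libraries against 4), of the members (black) and of the 4 other genes listed under xylan or arabinan breakdown (green), with filled points past the limits of the study. In LD/LC all values lie below 0, and in LC/GC *abf2* (-2.35) is the 1 gene on the left of 0.

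The genes of the regulators were also measured. *xyr1* (TrC0438W), the activator gene, had 102527 to 118719 normalized counts in the LC libraries and 18024 to 22301 in the LD libraries of both strains. It rose by 2.59 ± 0.38 on the log2 scale in LC/GC and fell by 2.54 ± 0.38 in LD/LC averaged over the strains (adjusted p = 0.00154 and 0.000210, edgeR quasi-likelihood F test, Benjamini-Hochberg), and its GD/GC value was -1.97 ± 0.37, just short of the fold limit. *ace1* (TrG0785W), a repressor gene, rose by 2.26 ± 0.30 in GD/GC and was at 1.66 ± 0.29 in LD/LC and 0.05 ± 0.28 in LC/GC. The acetyl xylan esterase gene *axe1* (TrE0669C), which removes acetyl groups from xylan, is outside the list and was chosen after its values were seen. It kept 2250 to 2638 normalized counts in the LD libraries, where each of the 4 members was below 500. It rose by 5.69 ± 0.95 in LD/GD (adjusted p = 0.00420 by the same test), in which no xylan gene of the list was called, and its LD/LC value of -2.58 ± 0.80 missed the limits (adjusted p = 0.0174).

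The 5 genes on either side of each member were examined by their averaged changes, for which the shares of all fitted genes were 7.3% falling in LD/LC and 1.31% rising in LC/GC. With so few genes at each member, these counts are descriptions. Of the 6 fitted neighbours of *xyn1*, 3 fell in LD/LC and 1 rose in LC/GC. TrF0477C, 5230 bases and 2 genes away, rose by 8.91 ± 1.04 on the log2 scale in LC/GC and fell by 8.50 ± 1.01 in LD/LC, with 6777 to 11716 normalized counts in the LC libraries and 0 to 73.7 in all other libraries. TrF0478C, between TrF0477C and *xyn1*, fell by 4.17 ± 0.68 in LD/LC and was also called in GD/GC (-3.41 ± 0.67). TrF0480C, 264 bases away on the other side, was at 1.23 ± 0.82 in LC/GC and -2.57 ± 0.92 in LD/LC, with no call.

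The direct neighbours of *xyn3* were not called in LC/GC or LD/LC. TrC0666C was at -0.43 ± 0.22 in LC/GC and 0.34 ± 0.22 in LD/LC, and TrC0668C, 250 bases away, was at 0.25 ± 0.24 and -1.23 ± 0.24. Of 7 fitted neighbours, 2 fell in LD/LC and 1 (TrC0664C, 3.87 ± 0.59) rose in LC/GC. TrC0664C is also the fifth gene on the far side of *abf2*.

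Near *bxl1*, 4 of the 5 genes on the side of *bgl1* fell with DTT in lactose, and the fifth, TrC1547W, was at -1.03. Of its 8 fitted neighbours, 5 fell in LD/LC, namely *bgl1* (-7.91 ± 1.10), TrC1550C (-5.28), TrC1549W (-2.87), TrC1548C (-3.09) and, on the other side, TrC1555W (-2.23). The values of *bgl1* and *bxl1* were alike in LD/LC and in GD/GC (-7.38 ± 1.23 for *bgl1*), with no test between the genes, and in LC/GC neither gene was called (4.84 ± 0.95 for *bgl1*). TrC1550C was called between the strains in GC, where it was 3.33 ± 0.29 higher in Δ*res2* on the log2 scale (adjusted p = 0.000824, edgeR quasi-likelihood F test, Benjamini-Hochberg). Its GC values were 123 and 124 normalized counts in Rut-C30 and 1514 and 981 in Δ*res2*, and *bxl1*, 2 genes away, showed no such call.

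Of the 7 fitted neighbours of *abf2*, 2 fell in LD/LC, 1 of them TrC0660W next to it (-2.15 ± 0.46), and TrC0655C rose with DTT in lactose (2.58) and in glucose (2.64). None of them fell in LC/GC or LD/GD, in which *abf2* and 0.418% and 0.341% of all fitted genes fell. TrC0660W was at -0.15 ± 0.44 and TrC0658W, on the other side, at 1.19 ± 0.73 in LC/GC. In LD/LC both were near the -1.99 of *abf2*, TrC0658W with -1.76 and no call.

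**Figure D4:**
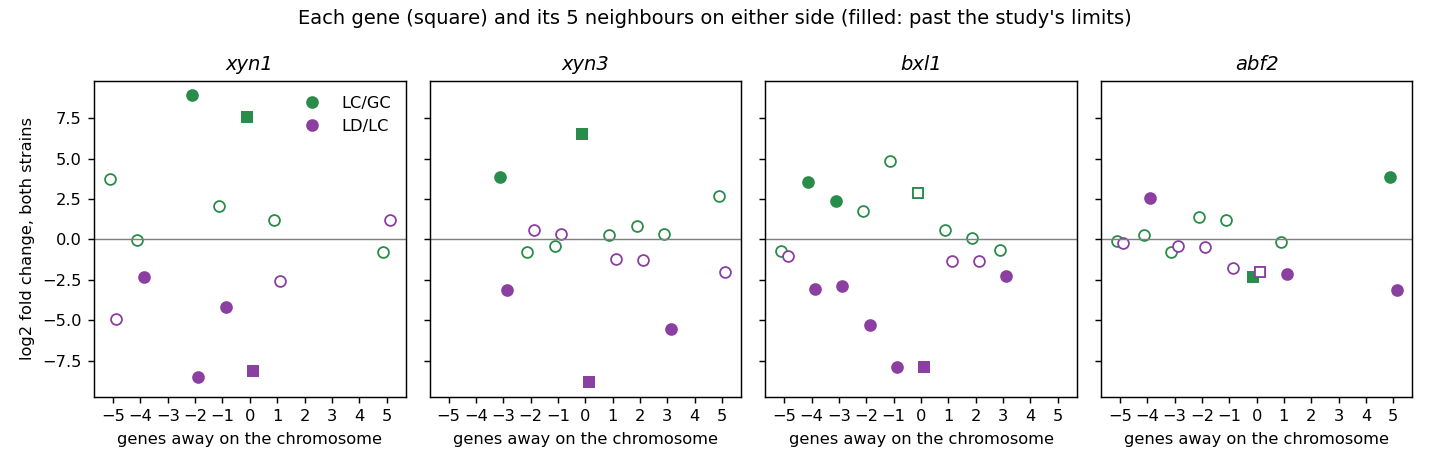
Log2 fold change averaged over the strains in LC/GC (green) and LD/LC (purple) of each member (square at 0) and of its fitted neighbours (circles) by gene order, with filled symbols past the limits of the study. TrF0477C at position -2 of *xyn1* (8.91 and -8.50) and *bgl1* at position -1 of *bxl1* (-7.91 in LD/LC) lie near the values of the member, and the genes next to *xyn3* do not.

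The genes whose profiles were most like each member were found by Pearson's r of log2 CPM over the 16 libraries, among 9100 other genes. These values describe libraries that share groups and depth, and no test was made. For *xyn1* they were TrG1183C (r = 0.988), TrD1348C (0.986) and its neighbour TrF0477C (0.985). For *xyn3* they were TrB0835W (0.986), TrA0809C (0.985) and TrB0016W (0.984), and for *bxl1* TrE0005W (0.994), TrE0434C (0.989) of the breakdown list and TrD1290C (0.988). The mean normalized counts of TrE0005W, the closest to *bxl1*, were, in Rut-C30, 6835 with LC, 46.1 with LD, 1010 with GC and 17.0 with GD, the same order of conditions as *bxl1*. *abf2* had no gene as close, its likest being TrB0308C (0.933), TrA1366C (0.928) and TrF0895W (0.927). TrA1366C had means of 992 in GC, 248 in GD, 231 in LC and 41.7 in LD of Rut-C30, and TrB0308C varied less, from 1956 in LD to 4684 in GC of Rut-C30. Among the members, r was 0.946 between *xyn1* and *xyn3*, 0.886 between *xyn1* and *bxl1* and 0.947 between *xyn3* and *bxl1*, and between -0.10 and 0.16 for each of them with *abf2*.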

How the data were processed

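The authors filtered single reads of strand-specific libraries, aligned them to the QM6a genome with STAR 2.7.8a, dropped reads with several alignments and counted the rest with HTSeq-count 0.5.3 over the coding sequences of their own annotation. The strand mode of counting was not given in the sources used here. The deposited counts (10008 genes in each of 16 libraries) were not normalized.

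Groups came from the sample labels. The labels name duplicates, which the study describes as biological, so p-values measure the spread between these cultures. Counts were fitted with edgeR 4.0.16 (limma 3.58.1, R 4.3.3) after filterByExpr and TMM scaling, with a mean for each of 8 groups over all 16 libraries, and tested by the quasi-likelihood F test with Benjamini-Hochberg adjustment over 9101 genes. The SE is the absolute log2 fold change divided by the square root of F, and fits add a count of 0.125. Comparisons within strains and averaged over them used the limits of the study, which are a mean of 100 or more normalized counts, a log2 fold change beyond 2 either way and an adjusted p under 0.005. Differences between strains, responses and carbon sources used an adjusted p under 0.05. Positions came from the deposited annotation (9847 genes), and TRIREDRAFT numbers from the supplementary tables of the study (1729 genes). The symbols *xyr1*, *ace1* and *axe1* came from RefSeq.

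The named genes were the members, the genes listed under xylan or arabinan breakdown, 5 neighbours on each side and the 3 genes most like each member. Further named genes were *xyr1*, *ace1*, *axe1*, *bgl1*, *cbh1* and TrA1112W. The members and lists were chosen with earlier results of these data known. Alternatives were DESeq2 1.42.0, edgeR with its size factors, no filter beyond 1 count per gene, only the libraries of a comparison, the replicate number as a block, other limits, an added count of 2, each library left out and, added after the data were seen, the libraries of 1 carbon source alone. Both tools were tested on simulated data with 1 common spread for all genes and libraries and changes planted in LD alone. That setting does not cover the unlike spread of the glucose and lactose libraries. Promoter and protein sequences were not analysed here.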

Additional observations from a re-analysis of the deposited data

Results flagged for a closer look

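The DTT response of *xyn1* (TrF0479W) differed between the carbon sources by a log2 value of -4.30 (LD/LC minus GD/GC, averaged over the strains). Of the list of breakdown genes, the same difference was called for TrD0008W (-5.76). Among the neighbours of the members, it was called for TrF0474W (-6.39), TrC1548C (-2.89), TrC1550C (-1.92), TrC1554W (-1.06) and, in the other direction, TrC0665C (0.96). Of all fitted genes, 7.41% were called for this difference. TrF0474W had a mean of 5.63 normalized counts, so its value depends on the added count. TrC1550C also responded differently to lactose in the strains, with a log2 difference in LC/GC of -3.13 between Δ*res2* and Rut-C30 (adjusted p = 0.0479, edgeR quasi-likelihood F test, Benjamini-Hochberg). Groups of 2 libraries are too small for a test of single outlying libraries.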

How the results depend on the processing

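The 3 members called in LD/LC averaged over the strains kept their calls under every setting, and the count was 4, with *abf2*, with the replicate block, with an adjusted p under 0.05 alone (57.4% of fitted genes) and with a log2 limit of 1. Shares of all fitted genes were determined for DESeq2, the adjusted p under 0.05 alone and the libraries of 1 carbon source, and not for the other alternatives. With DESeq2, Rut-C30 had 2 members called in GD/GC (9.26% of fitted genes, 0 members in the report), 3 in LC/GC (2.2%, 0) and 1 in LD/GD (1.1%, 0). For Δ*res2* the DESeq2 count was 2 in GD/GC (12.2%, 0) and 2 in LD/GD (1.59%, 0), and it was 2 in LD/GD averaged (1.83%, 1). With an adjusted p under 0.05 as the only limit, Rut-C30 had 2 calls in GD/GC (34.5% of fitted genes), 3 in LC/GC (3.47%) and 1 in LD/GD (3.33%). In Δ*res2* the count was 3 in GD/GC (41.3%) and 2 in LC/GC (6.12%, with 1 member in the report). Averaged over the strains, the count was 4 in GD/GC (54.6%, with 2 members in the report) and 2 in LD/GD (14.3%). With only the libraries of a comparison, it was 0 in LC/GC of Δ*res2*, 0 in GD/GC averaged and 0 in LD/GD averaged. With the libraries of 1 carbon source alone, it was 0 in GD/GC averaged (4.02% of fitted genes). With the carbon source difference held to an adjusted p under 0.005, it was 0.

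With the replicate number as a block, the count was 0 in LC/GC of Δ*res2* and 0 in LD/GD averaged (adjusted p of *abf2* 0.00530 by the edgeR quasi-likelihood F test). The numbers were not taken to pair the samples, since over 28 pairs of groups the correlation of the deviations of the duplicates ran from -0.27 to 0.63 and was over 0.1 in only 6. These included GC with GD (0.63), GC with LC (0.18) and GD with LC (0.15) of Rut-C30.

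Leaving out 1 library at a time over all 16, the count ran from 0 to 2 in GD/GC of either strain, from 0 to 3 in LD/LC of Rut-C30 and 0 to 4 in that of Δ*res2*, from 0 to 3 in LC/GC of either strain, from 0 to 1 in LD/GD of Rut-C30, from 1 to 3 in LC/GC averaged and from 0 to 2 in LD/GD averaged. It ran from 0 to 2 for strain differences within a condition and in the response and from 0 to 3 for the carbon source difference. Signs turned for GD/GC of *xyn3* in Rut-C30 (-8.46 to 4.29), the carbon source difference of *abf2* (-0.96 to 0.26) and the strain difference averaged over conditions of *xyn1* (-0.80 to 0.025), *xyn3* (-0.91 to 2.27) and *bxl1* (-0.079 to 1.51). The causes were not tested. Of 462 gene values under an alternative, 5 were reversed, all of them with 1 library left out. With 2 cultures a group and a larger spread in glucose, changes of a few fold in glucose may go unseen.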
